A study of Rattus norvegicus with 53 samples.

Results

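The genes of polyamine synthesis and turnover were described in L6 rat myotubes with and without insulin. The set holds 9 genes: Odc1, Amd1, Srm, Sms, Sat1, Smox, Oaz1, Oaz2 and Azin1. Each gene was followed at the brightest array probe set that carries its symbol alone, out of 14217 genes with such a probe set, and 8 of the 9 were bright enough to be tested. The exception was Smox. L6 is a single rat skeletal muscle cell line that was grown to myotubes in low serum and then kept in serum-free medium for 8 hours before time 0. The insulin culture received 20 nM insulin in serum-free medium just after time 0, and the control culture received none. The sources used here do not say whether the control plates also received fresh medium. RNA was taken every 20 min from separate plates, and each array of hours 1 to 8 reports a pool of 3 consecutive samples, so hour 8 stands for 440 to 480 min. Time 0 has arrays of its own for each culture, taken before insulin was added. The whole course was run 3 times on different days with the same line, here run a, run b and run c. There were 53 arrays in 18 groups of culture and hour, 3 in each group except the insulin culture at hour 3, where run a is missing and 2 remain. No group differs in genotype, and all of them share the line and the serum withdrawal.

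Polyamines are small, positively charged molecules that bind nucleic acids and are needed for growth and translation. Ornithine decarboxylase, encoded by Odc1, makes putrescine from ornithine. S-adenosylmethionine decarboxylase, encoded by Amd1, supplies the aminopropyl groups that spermidine synthase (Srm) and spermine synthase (Sms) add in turn. Sat1 acetylates spermidine and spermine for export or breakdown, and Smox oxidises spermine back to spermidine. The antizymes Oaz1 and Oaz2 bind ornithine decarboxylase and direct it to degradation, and the antizyme inhibitor Azin1 binds antizyme in its place. Much of the control of this pathway acts on translation and on protein stability, which arrays of RNA do not measure.

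The sequences just upstream of 4 of these genes are shown because Srm and Amd1 had the largest insulin minus control differences of the set, Odc1 encodes the first enzyme, and Oaz1 shares a motif with Srm. They are the 250 bases before the annotated start, from RefSeq, build GRCr8, read 5′ to 3′ on the gene's strand. Capitals mark CACGTG, the E-box that Myc and related factors bind, and TATAAA, the TATA box.
Srm, chr5:164308752-164309001, plus strand: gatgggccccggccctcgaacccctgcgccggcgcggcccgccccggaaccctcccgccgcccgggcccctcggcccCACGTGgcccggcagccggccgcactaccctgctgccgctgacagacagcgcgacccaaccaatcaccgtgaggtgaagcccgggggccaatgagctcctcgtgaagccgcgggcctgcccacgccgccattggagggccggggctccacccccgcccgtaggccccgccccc
Amd1, chr20:45265983-45266232, minus strand: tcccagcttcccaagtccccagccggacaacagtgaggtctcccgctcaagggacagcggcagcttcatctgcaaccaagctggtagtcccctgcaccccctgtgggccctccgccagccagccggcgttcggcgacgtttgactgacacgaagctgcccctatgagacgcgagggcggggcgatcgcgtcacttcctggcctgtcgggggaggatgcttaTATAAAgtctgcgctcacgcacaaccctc
Odc1, chr6:46058415-46058664, plus strand: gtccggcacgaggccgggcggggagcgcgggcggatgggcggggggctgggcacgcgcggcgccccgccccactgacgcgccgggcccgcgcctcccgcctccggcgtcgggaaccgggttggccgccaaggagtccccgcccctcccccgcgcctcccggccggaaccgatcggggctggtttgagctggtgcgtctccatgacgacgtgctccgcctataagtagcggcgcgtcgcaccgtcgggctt
Oaz1, chr7:9536991-9537240, minus strand: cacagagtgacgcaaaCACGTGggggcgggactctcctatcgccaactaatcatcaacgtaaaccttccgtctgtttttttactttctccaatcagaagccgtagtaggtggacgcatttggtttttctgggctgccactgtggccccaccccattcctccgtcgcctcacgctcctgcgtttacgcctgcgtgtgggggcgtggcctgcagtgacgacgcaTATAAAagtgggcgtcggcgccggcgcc
An upstream sequence was at hand for 8 of the 9 members, all but Azin1. On either strand, CACGTG occurred in Srm, 173 bases upstream, and in Oaz1, 234 bases upstream, and in 8.27% of the 9645 tested genes with an upstream sequence. TATAAA occurred in Amd1, 29 bases upstream, and in Oaz1, 28 bases upstream, against 6.68% of those genes. Only exact matches were counted, so variants such as the tataag in the Odc1 window were left out. GGGCGG, the GC box, occurred in 7 of the 8 members and in 58.2% of the genes, and TGACGTCA, the cyclic AMP response element, in 0 of the 8 and in 2.94%. Matches of different motifs overlapped in 0 cases. These matches are bases in a window of fixed length and were not set against binding.

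All values are log2 levels or differences of log2 levels, and each test is limma over all tested probe sets with Benjamini-Hochberg adjustment and a threshold of 0.05. SE is the standard error of a difference. Over hours 1 to 8, Amd1, Srm and Azin1 were higher with insulin and Oaz2 was lower, which is 3 higher and 1 lower of the 8 tested. Among all tested probe sets, 5.53% were called higher and 6.63% lower. The median difference of the 8 members was 0.05, against 0.00368 over all probe sets. Over hours 5 to 8, Odc1, Amd1, Srm and Azin1 were higher, 4 of 8, where 4.02% of all probe sets were called higher, and no member was called lower. Each of these calls is a difference between cultures, and 0 members were called when the difference at time 0, measured on 6 arrays, was subtracted. After that subtraction 0 of all probe sets were called over hours 1 to 8, against 2671 before it. Over hours 5 to 8 they numbered 42, against 2052. So few probe sets passed that the 0 members say little about these genes in particular. Arrays of the same run deviated together, and with the run as a block, Odc1 and Sat1 joined the calls over hours 1 to 8, and Sat1 and Oaz2 those over hours 5 to 8, which made 4 higher and 2 lower in each case. With that block 11.7% of all probe sets were called higher and 15.2% lower over hours 1 to 8, and 9.34% and 12.5% over hours 5 to 8. Over the spans and changes described here the block gained 9 calls of members, and 0 of those 9 passed with 1 mean per run (adjusted p = 0.0891 to 0.508). With the 3 runs reduced to 1 value each, Amd1 and Srm remained over hours 5 to 8 and 0 members over hours 1 to 8. In that setting 649 of all probe sets were called over hours 5 to 8, 274 of them higher. Over hours 1 to 8 they numbered 152, with 50 of them higher. Across the tested probe sets, what set the cultures of run b apart at time 0 correlated at 0.77 with what set them apart over hours 1 to 5, where runs a and c gave 0.03 and 0.15. Without run b at hours 0 to 5, Amd1 and Srm were called in both spans and the other calls were lost.

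**Figure D1:**
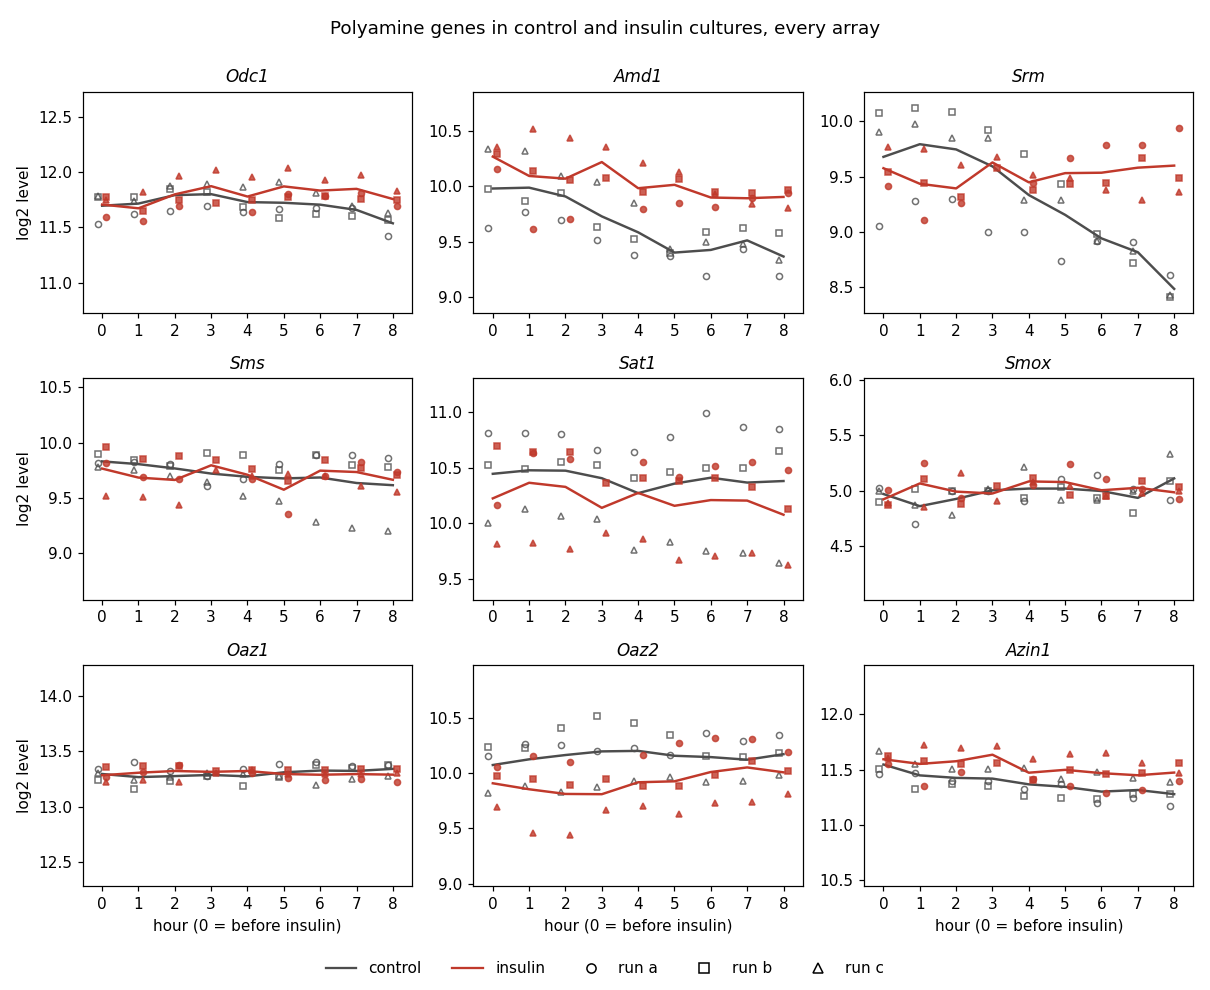
Log2 level of the 9 genes (vertical axis, a span of 2 log2 units in each panel) against hour (horizontal axis), with 1 point for each of the 53 arrays, open grey for control and filled red for insulin, symbols for runs a, b and c, and lines through the group means. The Srm means separate over time, from 9.68 in control and 9.58 with insulin at time 0 to 8.49 and 9.60 at hour 8, while those of Oaz1 stay between 13.27 and 13.34.

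Srm, which joins an aminopropyl group to putrescine to make spermidine, had the largest difference of the set over hours 5 to 8. In the control culture its level in runs a, b and c was 9.05, 10.08 and 9.91 at time 0 and 8.61, 8.41 and 8.43 at hour 8. In the insulin culture it was 9.42, 9.54 and 9.77 at time 0 and 9.94, 9.49 and 9.36 at hour 8. At hour 8 the lowest array with insulin lay above the highest control array, and how many other probe sets did so was not counted. The 3 control arrays lay close together at that hour, although at time 0 that of run a lay well below the others.

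The 12 control arrays of Srm at hours 5 to 8 ranged from 8.41 to 9.44, with a median of 8.87, and the 12 insulin arrays from 9.29 to 9.94, with a median of 9.49. Of the insulin arrays, 9 lay above every control array, and within run and hour insulin was higher in 12 of 12 pairs. The smallest of these pair differences, in run b at hour 5, was only 0.000278. Srm was 1.64-fold higher with insulin over these hours (log2 difference 0.71, SE 0.12, adjusted p = 5.03e-05), with differences of 1.00, 0.62 and 0.51 in runs a, b and c. Its difference was the 18th highest of 11577 genes at their brightest probe sets. It passed in every alternative that was run except relative to time 0, where the difference was 0.81 (adjusted p = 0.355). It passed more narrowly with 1 mean per run (adjusted p = 0.0125) and with run and culture as a random block (0.0442).

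In hours 1 and 2 Srm gave the opposite sign without passing the test. Its difference was -0.35 (SE 0.17, adjusted p = 0.507), and insulin was lower in 6 of 6 pairs, by between 0.04 and 0.76. Without run a it was -0.48 and passed (adjusted p = 0.0212), in a fit that called 1.39% of all probe sets lower over these hours. In run b the difference was already -0.53 at time 0, and it was -0.72 over hours 1 and 2. In run a it was 0.36 at time 0 and -0.11 over those hours. With all runs and no block, 0 probe sets were called over hours 1 and 2, a background of 0.00%, and 2079 probe sets had an unadjusted p under 0.05, with 2 members among them, Srm and Oaz2. At time 0 the background was likewise 0.00%, with 205 probe sets and 0 members at an unadjusted p under 0.05.

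The fitted difference of Srm thus went from a negative value that did not pass to a positive one that did. It changed by 1.07 from the first 2 hours to the last 4 (SE 0.21, adjusted p = 0.00304). Srm was the 1 member called higher for this change, where 0.929% of all probe sets were called higher. Its value was the 4th highest of the 11577 genes. In runs a, b and c the change was 1.10, 1.34 and 0.75. The call was lost with 1 mean per run (adjusted p = 0.0640), without run b (0.245), without run c (0.0877) and without run b at hours 0 to 5 (0.137), with values between 0.93 and 1.22 in these settings. With the run as a block Odc1 and Amd1 also passed for this change, where 6.23% of all probe sets were then called higher. Without a block, Srm was called at 1 single hour, hour 8, at 1.11 (SE 0.24, adjusted p = 0.0125), and was the 1 member called there, against 0.187% of all probe sets called higher. With the run as a block Amd1 was also called at hours 5, 6 and 8 (adjusted p = 0.00317, 0.0342 and 0.00744), and Odc1 and Azin1 at hour 8 (0.0212 and 0.0482). At hours 5, 6 and 8, 1.29%, 0.788% and 1.83% of all probe sets were called higher with that block. With differences paired by run and hour, Amd1 passed at hours 4 to 8, Srm at hours 7 and 8 (0.0180 at hour 7) and Odc1 at hour 8 (0.0157), whereas Azin1 missed the threshold at hour 8 (0.0895). In that fit 0.396%, 1.74%, 1.23%, 1.13% and 2.34% of all probe sets were called higher at hours 4, 5, 6, 7 and 8. Over the whole span of hours 1 to 8 the mean Srm difference was 0.29 (SE 0.09, adjusted p = 0.0228), with 0.60, 0.05 and 0.20 in runs a, b and c. That mean, which sums opposite signs, did not pass without run a (0.13, adjusted p = 0.0949), without run b (0.41, 0.0687) or without run c (0.32, 0.154). Nor did it pass with 1 mean per run (adjusted p = 0.305) or with run and culture as a random block (0.999).

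**Figure D2:**
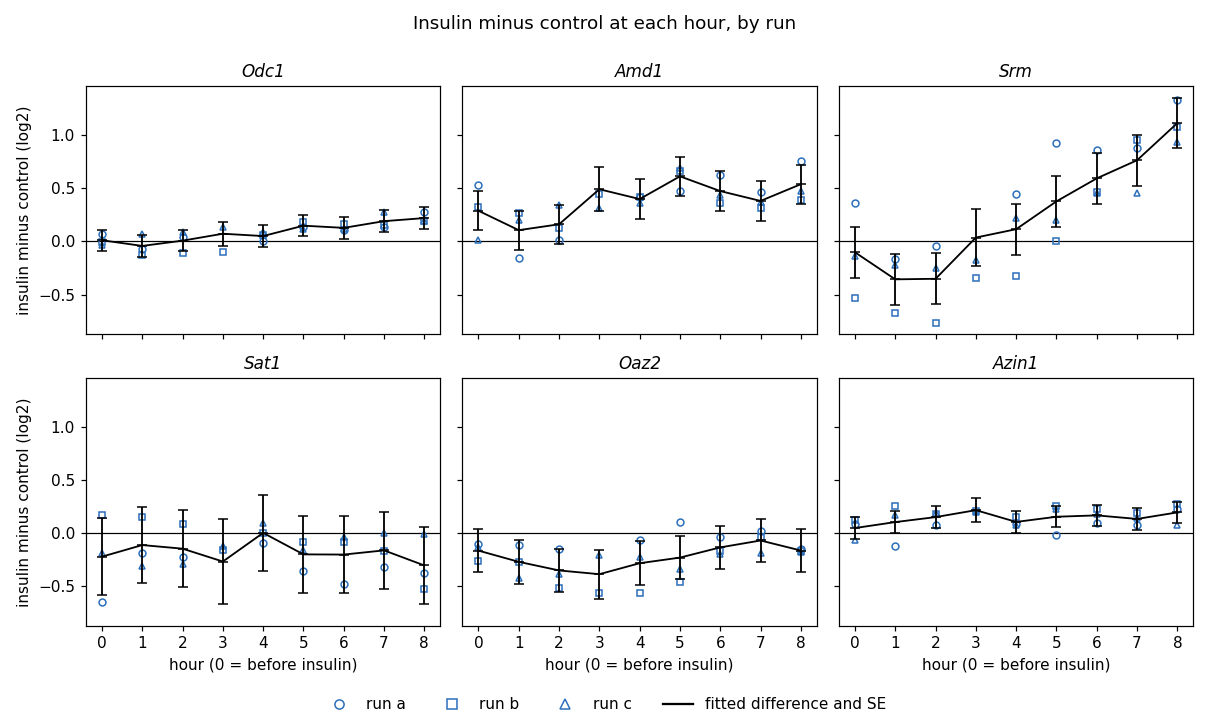
Insulin minus control difference in log2 units (vertical axis) at time 0 and hours 1 to 8 (horizontal axis) for 6 members, with blue symbols for runs a, b and c and black lines with bars for the fitted difference and its SE. The fitted difference of Srm runs from -0.36 at hour 1 to 1.11 at hour 8, and that of Amd1 stays above 0 at every hour, time 0 included.

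Amd1 encodes the decarboxylase that commits S-adenosylmethionine to polyamines. Its control arrays at hours 5 to 8 ranged from 9.19 to 9.63, with a median of 9.43, and its insulin arrays from 9.80 to 10.13, with a median of 9.93. The 2 cultures did not overlap: all 12 insulin arrays lay above all 12 control arrays. These arrays are repeated hours of the same runs, and how many other probe sets separate in this way was not counted. Amd1 was 1.41-fold higher with insulin (log2 difference 0.50, SE 0.09, adjusted p = 1.98e-04), and the differences in runs a, b and c were 0.58, 0.43 and 0.49. Of the alternatives run, the call was lost only relative to time 0. It passed more narrowly with 1 mean per run (adjusted p = 0.0148) and with run and culture as a random block (0.0463).

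The cultures also differed in Amd1 before insulin, without passing the test. At time 0 its level in runs a, b and c was 9.63, 9.97 and 10.34 in control and 10.15, 10.29 and 10.35 in the insulin culture. The difference was 0.53, 0.32 and 0.01 in the 3 runs and 0.29 in the mean (SE 0.18, adjusted p = 1.00). Relative to it, the difference over hours 5 to 8 was 0.21 (adjusted p = 0.998) in place of 0.50, and that over hours 1 to 8 was 0.11 in place of 0.39. In hours 1 and 2 the difference was 0.13 (SE 0.13, adjusted p = 0.801), smaller than at time 0, and insulin was higher in 5 of 6 pairs. Averaged over hours 1 to 8, the difference was 0.39 (SE 0.07, adjusted p = 5.17e-05), with 0.37, 0.37 and 0.40 in the runs and insulin higher in 22 of 23 pairs. Its change from early to late hours was 0.37 (SE 0.16, adjusted p = 0.263, and 0.0241 with the run as a block). Without run b at hours 0 to 5 the mean was 0.39 (adjusted p = 0.00962), and with 1 mean per run it was 0.38 (adjusted p = 0.0508). By the F test of any difference over the 8 hours, Amd1 (adjusted p = 0.0114) and Srm (adjusted p = 0.00688) were called, 2 of 8 members against 2.42% of all probe sets, and with the run as a block Odc1, Oaz2 and Azin1 were called too, 5 of 8 where 11.5% of all probe sets were called. Without run b, and likewise without run c, the F test calls of members were lost. Those fits leave 1 insulin array at hour 3 and called far fewer of all probe sets. They therefore cannot tell a loss in these genes from a general loss of calls.

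Odc1, the first enzyme of the pathway, had a smaller difference that was much alike in the 3 runs. At hours 5 to 8 the control arrays ranged from 11.42 to 11.91, with a median of 11.65, and its insulin arrays from 11.69 to 12.03, with a median of 11.80. The ranges overlapped, since run c was high in both cultures, yet insulin was higher in 12 of 12 pairs, by 0.11 to 0.28. The difference was 0.17 (SE 0.05, adjusted p = 0.0224), which is 1.13-fold, and it was 0.16, 0.17 and 0.18 in runs a, b and c. It did not pass without run a (adjusted p = 0.0843), without run b (0.216), without run b at hours 0 to 5 (0.0755), with 1 mean per run (0.192) or with run and culture as a random block (0.255), with values of 0.17 throughout. At time 0 the cultures differed by 0.01 (SE 0.10), and in hours 1 and 2 by -0.02 (SE 0.07), with insulin higher in 3 of 6 pairs. The mean difference over hours 1 to 8 was 0.10 (SE 0.04, adjusted p = 0.0754, and 0.00127 with the run as a block). The change from early to late hours was 0.19 (SE 0.09, adjusted p = 0.298, and 0.0132 with the block).

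Sms, which makes spermine from spermidine, was not called in any comparison. At hours 5 to 8 its control arrays ranged from 9.20 to 9.89 and its insulin arrays from 9.36 to 9.84. The difference was 0.03, with a 95% interval from -0.13 to 0.19, and it was -0.20, -0.06 and 0.35 in runs a, b and c. The runs thus lay on both sides of 0. In run c the control culture went from 9.77 at time 0 to 9.20 at hour 8. A second, dimmer probe set of Sms gave a difference of -0.00184 over hours 5 to 8.

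**Figure D3:**
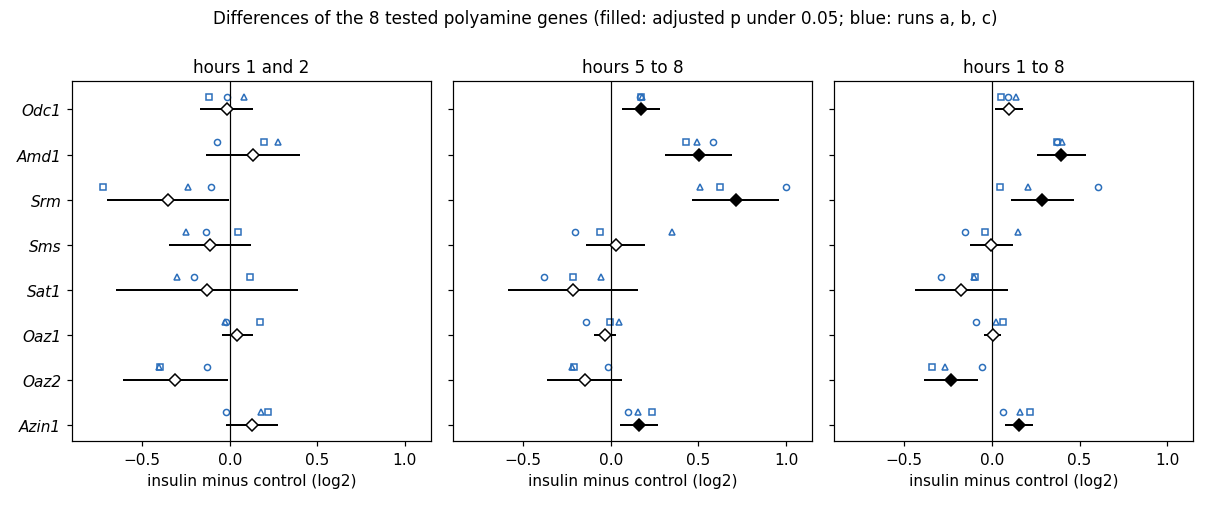
Insulin minus control difference in log2 units (horizontal axis) of the 8 tested members (rows) over hours 1 and 2, hours 5 to 8 and hours 1 to 8, with diamonds for the fitted difference, filled where the adjusted p is under 0.05, lines for its 95% interval and blue symbols for the 3 runs. Odc1, Amd1, Srm and Azin1 are filled over hours 5 to 8, at 0.17, 0.50, 0.71 and 0.16, and no member is filled over hours 1 and 2.

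Sat1, the acetyltransferase of polyamine turnover, varied more between runs than between cultures. Its mean level over all arrays of runs a, b and c was 10.65, 10.48 and 9.82. Control arrays of hours 5 to 8 ranged from 9.64 to 10.99, with a median of 10.50, and the insulin arrays from 9.63 to 10.55, with a median of 10.36, so the cultures overlapped. Within run and hour, insulin was lower in 11 of 12 pairs, by up to 0.53. The difference over these hours was -0.22 (SE 0.18, adjusted p = 0.578), and it passed with the run as a block (adjusted p = 0.00499), where the residual SD of Sat1 went from 0.46 to 0.15. Over hours 1 to 8 it was -0.17 (adjusted p = 0.424), and -0.15 with the run as a block (adjusted p = 0.00526). The runs gave -0.29, -0.10 and -0.11 over those hours. The cultures already differed by -0.65, 0.17 and -0.19 at time 0, and relative to time 0 the difference over hours 5 to 8 was 0.00456. At hour 3 the missing insulin array is that of run a, the run where Sat1 was highest, so the fitted -0.27 of that hour exceeds both pair differences, -0.16 and -0.12.

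The 12 tested markers of differentiated myotubes differed between runs in the same order as Sat1. Their mean level was 10.25, 10.18 and 9.23 in runs a, b and c. That of 7 markers of proliferating cells was 9.39, 8.76 and 9.52. The part of these markers in the spread of Sat1 was not tested.

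Smox was the dimmest member and was not tested. Its mean level over all arrays was 5.00, just under 5.04, the lowest mean among the tested probe sets, and its arrays ranged from 4.70 to 5.33. Without the filter on low values its difference was 0.04 over hours 1 to 8 (adjusted p = 0.559) and 0.00784 over hours 5 to 8 (adjusted p = 0.973). A brighter probe set that names Smox together with another gene was not used.

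The antizymes and their inhibitor did not move alike. Oaz1 stayed nearly level, with all 53 arrays between 13.16 and 13.41. Its difference over hours 1 to 8 was 0.00346 (SE 0.02), with a 95% interval from -0.04 to 0.05. A difference as large as that of Azin1 lies outside that interval, which takes all arrays as independent. Over those hours runs a, b and c gave -0.09, 0.06 and 0.02. The difference over hours 5 to 8 was -0.03, with -0.14, -0.01 and 0.05 in runs a, b and c.

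Oaz2 was lower with insulin over hours 1 to 8, by 0.24 log2 units in the mean (difference -0.24, SE 0.07, adjusted p = 0.0284), which is 1.18-fold lower. Its 24 control arrays ranged from 9.83 to 10.51, with a median of 10.19, and its 23 insulin arrays from 9.44 to 10.32, with a median of 9.95. Insulin was lower in 21 of 23 pairs, by up to 0.56. By run the difference was -0.06, -0.34 and -0.27, and at time 0 it was -0.11, -0.26 and -0.13. The cultures thus differed in the same direction before insulin, and relative to time 0 the difference was -0.07. The call was lost without run b (-0.19, adjusted p = 0.462), without run b at hours 0 to 5 (-0.19, adjusted p = 0.296) and with 1 mean per run (adjusted p = 0.243). It was also lost with run and culture as a random block (adjusted p = 0.883). The largest hourly difference was -0.39 at hour 3, and at hour 7 it was -0.07. Blocking on the run was needed for the difference of -0.31 at hours 1 and 2 to pass (adjusted p = 0.0269, and 0.493 without the block), where 1.23% of all probe sets were then called lower. It did not pass with differences paired by run and hour (0.0648) or with 1 mean per run (0.508). The block was needed likewise for the -0.15 of hours 5 to 8 (adjusted p = 0.0186, and 0.466 without). The second probe set of Oaz2 gave -0.24 over hours 1 to 8 and missed the threshold (adjusted p = 0.0972).

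Azin1, the antizyme inhibitor, was higher with insulin, by 0.15 over hours 1 to 8 (SE 0.04, adjusted p = 0.00350) and by 0.16 over hours 5 to 8 (SE 0.05, adjusted p = 0.0322). The control arrays of hours 1 to 8 ranged from 11.17 to 11.55, with a median of 11.37, and the insulin arrays from 11.29 to 11.73, with a median of 11.50. Insulin was higher in 21 of 23 pairs and 10 of 23 insulin arrays lay above every control array. The differences in runs a, b and c were 0.06, 0.22 and 0.16. The call over hours 1 to 8 was lost without run b (0.13, adjusted p = 0.278), without run b at hours 0 to 5 (0.14, adjusted p = 0.0939) and with 1 mean per run (adjusted p = 0.273), and so was that over hours 5 to 8 (adjusted p = 0.439, 0.134 and 0.263). With run and culture as a random block both calls were lost too (adjusted p = 0.694 and 0.257). Of the other probe sets of Azin1, the brighter gave 0.23 over hours 1 to 8 (SE 0.06, adjusted p = 0.0140), and a dim one gave 0.00303 (SE 0.06, adjusted p = 0.982). Over hours 5 to 8 the brighter gave 0.24 and missed the threshold (adjusted p = 0.0981), and the dim one gave -0.04 (0.856). The probe sets of this gene therefore disagreed. The 2 brightest gave the same direction, and the dim one, at a mean level of 6.21, was not called in either span. The difference of Azin1 was 0.05 at time 0.

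Within the control culture alone, Srm and Amd1 fell from time 0 to hours 5 to 8. Srm fell by 0.83 (SE 0.19, adjusted p = 0.00426) and Amd1 fell by 0.55 (SE 0.15, adjusted p = 0.0138), 2 of 8 members where 2.83% of all probe sets were called lower. Srm gave -0.26, -1.19 and -1.04 in runs a, b and c, and Amd1 gave -0.33, -0.42 and -0.90. Both calls were lost without run b, without run c and without run b at hours 0 to 5. Azin1 gave -0.24 (adjusted p = 0.0666, and 3.53e-04 with the run as a block, where 7.98% of all probe sets were called lower), with -0.22, -0.25 and -0.25 in the runs. Odc1 gave -0.04 and Oaz2 gave 0.08.

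In the insulin culture 0 of the 8 members were called against their own time 0 by limma, where 1.46% of all probe sets were called, and 1 member, Amd1, had an unadjusted p under 0.05. Srm gave -0.01 (SE 0.19), with 0.38, -0.03 and -0.39 in runs a, b and c, so the runs went in opposite directions. Amd1 gave -0.34 (SE 0.15, adjusted p = 0.354, 0.0247 with the run as a block and 0.328 with 1 mean per run), with -0.28, -0.32 and -0.43 in the runs. With that block 4.30% of all probe sets were called lower. The interval for Odc1 was -0.04 to 0.28, around 0.12. The difference between the cultures at hours 5 to 8 in Srm thus lay beside a called fall in control and no called change with insulin. The test of the 2 changes against each other is the value relative to time 0 given above. It did not pass, in a fit that called 7 of all probe sets higher.

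**Figure D4:**
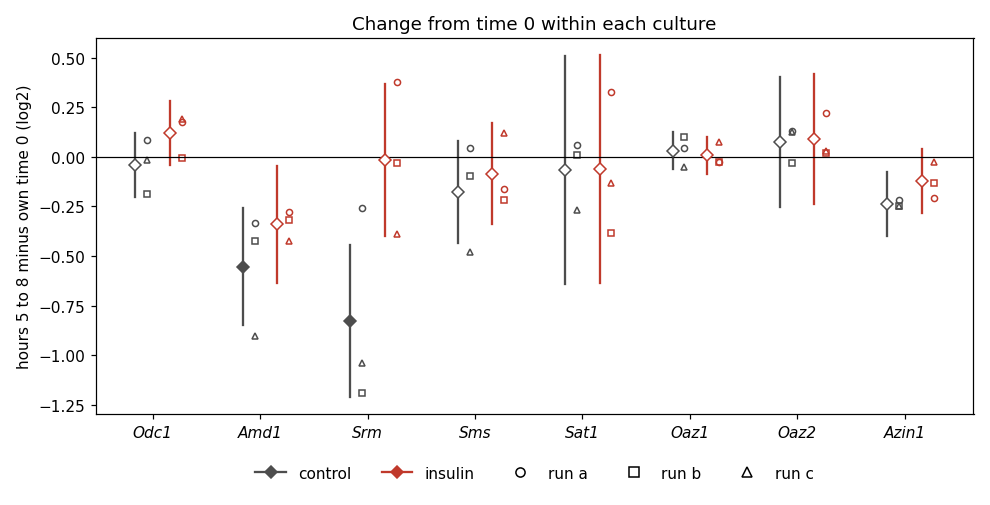
Mean of hours 5 to 8 minus the culture's own time 0 in log2 units (vertical axis) for the 8 tested members (horizontal axis), grey for control and red for insulin, with diamonds for the fitted change, filled where the adjusted p is under 0.05, lines for its 95% interval and open symbols for the 3 runs. Srm at -0.83 and Amd1 at -0.55 in control are the filled ones.

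Beside the fall of Srm and Amd1 in control, 2 of the 3 tested markers of undifferentiated myoblasts also fell there, Id1 (-1.25, adjusted p = 0.0211) and Id3 (-2.24, adjusted p = 0.00136), both inhibitors of muscle transcription factors. In that comparison 2.83% of all probe sets were called lower. Of the markers of differentiated myotubes, 0 of 12 were called by limma, and with the run as a block 4 were lower with insulin over hours 1 to 8 and 2 over hours 5 to 8. With that block 15.2% and 12.5% of all probe sets were called lower in these 2 spans. Myog, Acta1 and Myh3, which define differentiated muscle, were present at mean levels of 12.37, 13.48 and 13.43, whereas Myod1, at 4.12, was too dim to be tested. Other myotube markers were dimmer, such as Ckm at 9.50 and Myh8 at 5.32, and 10 of the 12 lay above the median level of an array. The 3 tested myoblast markers were present at a mean level of 8.51 to 9.95 in the 18 groups. Of the 7 proliferation markers, 0 were called, and with the run as a block 1 was higher with insulin over hours 1 to 8 and 5 were higher over time in control. With that block 11.7% of all probe sets were called higher over hours 1 to 8. Over time in control 2500 were called higher with it, against 801 (3.65%) without. The 7 proliferation markers were present at a mean level of 8.95 to 9.67 in the 18 groups. In single arrays of hours 5 to 8 the mean level of the myotube list was 9.22 to 10.35 in control arrays and 9.17 to 10.31 with insulin, and that of the proliferation list 8.56 to 9.97 and 8.85 to 9.99. Of the 5 fibroblast markers, 1, Pdgfra, was lower with insulin over hours 5 to 8 and 0 were called over hours 1 to 8. Without the block, 5.33% of all probe sets were called lower over hours 5 to 8. With the run as a block 3 of the 5 were lower in each span, Pdgfra, Dcn and Lum over hours 5 to 8 and Pdgfra, Dcn and Thy1 over hours 1 to 8. In single arrays of hours 5 to 8 that list was at 8.12 to 8.51 in control and 7.99 to 8.20 with insulin. Of the 3 tested macrophage markers, Cd68 was 0.14 higher over hours 1 to 8 at a mean level of 5.57, and with the run as a block Cd14 was lower over hours 5 to 8 (-0.25, adjusted p = 0.00335, and 0.0961 without the block). Without the block, 5.53% of all probe sets were called higher over hours 1 to 8. None of the 3 endothelial and 4 adipocyte markers on the array was bright enough to be tested. In cultured cells, fewer cells of a type and less RNA per cell cannot be told apart, and the part of these markers in the results was not tested.

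Over the 18 group means, which share arrays, runs and time, Amd1 and Azin1 ran most alike among the members, with a Pearson correlation of 0.95 (0.83 over the 53 arrays). Amd1 and Srm gave 0.77 (0.68), and Oaz2 ran against Azin1 at -0.83 (-0.84). Oaz2 and Sat1 gave 0.76 over the arrays and 0.53 over the group means, and both were lowest in run c. These are descriptions, with no test.

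Among all 11577 genes, those most like Srm over the 18 group means were Hgh1 (0.979), Nolc1 (0.972), Hspa9 (0.968), G3bp1 (0.966) and Nle1 (0.966). Nolc1 is a nucleolar phosphoprotein and Hspa9 a mitochondrial chaperone. All 5 were higher with insulin over hours 5 to 8, by 0.27 to 0.45. The genes named here were chosen on group means that include those hours. Shared differences therefore follow largely from the choice and are not a separate result. The genes most like Amd1 were Celf4, Lyar, Syncrip, Hells and Wdr43 (0.968 to 0.982), also all higher over those hours, by 0.31 to 0.64. For Odc1 they were Tmem41a, Fv1, Trub1, Aen and Lcmt2 (0.893 to 0.945), of which Lcmt2 was not called. For Sat1 they were Cav3, Saraf, Gprc5c, Vcam1 and Atxn1l (0.872 to 0.910). Cav3 is the caveolin of muscle. Over single arrays the likeness was lower for some, at 0.33 for Saraf and 0.46 for Fv1.

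Beyond the 9 members, 58 genes in 6 lists supply or use the pathway, and 54 of them were on the array and 44 tested. Of these, 6 were higher and 6 lower with insulin over hours 1 to 8, and over hours 5 to 8, 6 and 5. Of all 11577 genes, 14.1% and 11.2% were called in either direction in these spans. With the run as a block the counts were 7 higher and 8 lower, and 9 and 6, where 30.5% and 25.1% of all genes were called.

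The largest differences above 0 in supply and transport were those of Slc7a1 and Aldh18a1. Slc7a1, which carries arginine and ornithine into the cell, was 0.89 higher over hours 5 to 8 (SE 0.10, adjusted p = 1.75e-08), and it fell by 0.92 over time in control. Aldh18a1, which makes the precursor of ornithine and proline from glutamate, was 0.62 higher (SE 0.07, adjusted p = 7.86e-08). Slc3a2, the heavy chain of amino acid transporters, was 0.47 higher (adjusted p = 0.00122). Mat2a, which makes S-adenosylmethionine, was 0.40 higher (SE 0.10, adjusted p = 0.00845), and Mat2b, its regulatory subunit, was 0.38 lower (difference -0.38, adjusted p = 7.00e-05). Asl, which makes arginine, was lower, at -0.27 (adjusted p = 5.26e-04). Ahcy, the hydrolase of S-adenosylhomocysteine, was lower over hours 1 to 8 only, at -0.18 (adjusted p = 0.0289). Slc18b1, a vesicular polyamine transporter, was lower over hours 5 to 8, at -0.21 (adjusted p = 0.0327).

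Of the 10 regulators, 4 were called over hours 5 to 8, where 11.2% of all genes were called in either direction. Myc, whose product binds the E-box and which is known to activate Odc1, was 0.84 higher (SE 0.16, adjusted p = 3.77e-04) and fell by 1.28 over time in control. Mxi1, a repressor that competes with Myc for Max, was lower, at -0.90 (SE 0.07, adjusted p = 1.51e-12). Mxd1, a repressor of the same family, was lower at -0.19 (adjusted p = 0.0127, and 0.0828 without run b at hours 0 to 5). Elavl1, an RNA-binding protein, was 0.25 higher (adjusted p = 8.90e-05). The part of these regulators in the levels of the members was not tested. Of the other antizyme, oxidase and acetylase genes, 1 of 3 tested was called, Paox, the acetylpolyamine oxidase, at -0.22 over hours 1 to 8 (adjusted p = 0.00545). That call was lost without run b at hours 0 to 5 (adjusted p = 0.158), and with the run as a block Paox also passed over hours 5 to 8 (-0.19, adjusted p = 0.00484). In the mean of hours 1 to 8, Asl (0.0529), Mat2a (0.0645), Slc3a2 (0.124), Ahcy (0.486) and Mxd1 (0.177) also missed the threshold without those arrays, as adjusted p. Of the 4 genes of hypusine synthesis and its carrier eIF5A, the modification that spends spermidine, 0 were called by limma in either span, and 1 over hours 5 to 8 with the run as a block. Eif5a gave 0.03 over hours 5 to 8 and Dohh, the hydroxylase, 0.19 (adjusted p = 0.0650, and 0.0116 with the block).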

How the data were processed

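RNA of L6 cultures was measured on Affymetrix rat arrays. Per the labels, the authors subtracted background, applied quantile normalization and summarised probes with RMA (version not stated), and deposited log2 levels. The table holds 31099 probe sets, 57 of them manufacturer's controls. The median level of an array lay between 6.30 and 6.37. Precision is limited by how many arrays a group has. Quantile normalization makes each level relative to its array. The authors' detection calls were not used here, so probe sets were ranked by mean level and as many as the study tested were kept, down to a mean of 5.04, which left out 9084. In the platform annotation 20832 probe sets carry 1 symbol, 436 several and 9831 none.

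Groups came from the labels. One label field of the last pool gives 400 min where another and the study give 440. A mean was fitted for each of 18 groups in limma (3.58.1, R 4.3.3), using a variance trend and Benjamini-Hochberg adjustment over all tested probe sets, and the tests were two-sided. The culture repeats are named runs a, b and c after the letters of the labels. Nothing says that arrays of 1 run at different hours are independent, so p-values measure the spread between these arrays. Same-run arrays of an hour deviated together from their group means in 26 of 26 pairs (correlations 0.21 to 0.79), and the runs are repeats on different days, so blocked values stand beside a result where the block changes its call. The scripts were tested on simulated data with independent noise on each array, which does not cover runs whose arrays deviate together.

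The members and lists were chosen with earlier results of these data known. The text names all 9 members, their other probe sets where call or direction differs, up to 4 called genes of each list by size, and the 5 genes most like Odc1, Amd1, Srm and Sat1 over group means. Genes outside the 4 per list are named where their call is counted. No genome was at hand, and upstream sequences are those of RefSeq. Figures were drawn with matplotlib 3.10.9.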

Additional observations from a re-analysis of the deposited data

Results flagged for a closer look

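The insulin minus control difference of Srm was not the same at early and late hours: it changed by 1.07 on the log2 scale between hours 1 and 2 and hours 5 to 8 (SE 0.21, limma adjusted p = 0.00304), tested as a contrast of the differences themselves. It was above 0 in 3 of 3 runs (1.10, 1.34 and 0.75). Without run b it was 0.93 (adjusted p = 0.245), without run c 1.22 (0.0877), and without run b at hours 0 to 5 it was 0.93 (0.137). Outliers within a group were not tested, because groups hold 2 or 3 arrays.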

How the results depend on the processing

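Of 371 values of single members under an alternative, in 29 results, 287 kept direction and side of the threshold, 45 lost the call, 21 gained it and 18 reversed. The filter on low values, the stricter filter and the variance without a trend changed no count of called members by more than 1.5 times. Members called over hours 1 to 8 numbered 4, and 0 with 1 mean per run, with the random block of run and culture and relative to time 0, 2 without run b at hours 0 to 5, and 1 to 3 without a replicate. Over hours 5 to 8 they numbered 4, and 2 with 1 mean per run, with the random block and without run b at hours 0 to 5, 0 relative to time 0, and 2 to 4 without a replicate. Over hours 1 and 2 they numbered 0, with the replicate block of the run 1 and with pairs by run and hour 0, and 0 to 1 without a replicate. For the change from early to late hours they numbered 1, with either replicate block and with the random block 3, and 0 with 1 mean per run and without run b at hours 0 to 5, and 0 to 1 without a replicate. By the F test they numbered 2, with either replicate block 5, with the random block 1, without run b at hours 0 to 5 1, and 0 to 2 without a replicate. For control over time they numbered 2, 0 without run b at hours 0 to 5 and 0 to 2 without a replicate, and for insulin over time 0, with the replicate block of the run and with the random block 1, and 0 with 1 mean per run. The replicate block lost 0 calls of members over these spans and changes and gained 9. Of the listed genes, it gained 11 over hours 1 to 8 and 9 over hours 5 to 8, and lost 0 in either.

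The values that reversed were those of differences not called, except that of Azin1 over hours 5 to 8 at another probe set. Relative to time 0, Sms gave 0.0619 and Sat1 0.0476 over hours 1 to 8, and Sat1 gave 0.00456 and Oaz2 0.0152 over hours 5 to 8. Without run b at hours 0 to 5, Odc1 in control over time gave 0.0184 and Oaz1 over hours 1 to 8 gave -0.0255. Oaz1 over hours 1 to 8 gave -0.00168 with 1 mean per run and with arrays centred on their median. At other probe sets, Sms gave -0.00184 and Azin1 -0.0449 over hours 5 to 8. Without 1 replicate, Odc1 in control over time ranged from -0.102 to 0.0325, and Srm in the insulin culture over time from -0.209 to 0.172. Sms ranged from -0.0750 to 0.0519 over hours 1 to 8 and from -0.134 to 0.143 over hours 5 to 8, and Oaz1 from -0.0275 to 0.0425 and from -0.0733 to 0.0201. The causes were not tested.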
